A study of Mus musculus with 9 samples.

Results

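C-type lectin receptors are surface proteins with a carbohydrate-recognition-like domain through which DC bind sugars, dying cells and microbes and take up antigen. The 10 genes described here, Clec9a, Ly75, Cd209a, Clec4a4, Clec4a2, Clec4n, Clec7a, Clec10a, Clec12a and Cd207, were chosen by name from the 39179 genes of the count table for their use in antigen uptake and in telling DC subsets apart. All 10 were found, and all 10 had enough counts for a test, as did 13819 genes in total. Transcripts were measured by RNA sequencing in 3 DC subsets, cDC1, cDC2 and pDC, of unstimulated C57BL/6J mouse spleen. cDC1 were CD11c-high, CD317-low, CD8+ and CD11b-; cDC2 were CD11c-high, CD317-low, CD8- and CD11b+; pDC (plasmacytoid DC) were CD11c-intermediate, CD317-high and CD11b-. Each subset had 3 libraries, and each library came from 15 to 17 pooled mice, so that differences between single mice cannot be seen. Libraries with the same replicate number carry the same date code in the 3 subsets.

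Some of these receptors activate the cell and others restrain it. Clec9a, Clec7a and Clec4n signal through the kinase Syk, the last of them through the adaptor chain encoded by Fcer1g, and Syk acts on through Card9, Bcl10 and Malt1. Clec4a4, Clec4a2 and Clec12a carry an inhibitory motif that recruits phosphatases such as the one encoded by Ptpn6. Ly75, Cd209a, Cd207 and Clec10a are mainly known as receptors that carry bound glycans or proteins into the cell. Splenic cDC1 are known for presenting antigen from dead cells to CD8 T cells, cDC2 for priming CD4 T cells, and pDC for secreting type I interferon.

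Gene counts summed to between 15806597 and 32453789 per library, and 3 counts, taken as the floor of detection, corresponded to between 0.0908 and 0.203 CPM, for counting error only. CPM here is the usual count relative to the library total, after TMM scaling. Replicate libraries were not alike within sampling noise, so each was kept as a sample of its own, and p-values measure the spread between these pools. Of the genes behind the sort, Cd8a was at 1434 ± 209 CPM (SD, n = 3) in cDC1 and 21.1 ± 3.29 in cDC2, but also at 338 ± 55.7 in pDC, which were not gated on CD8. Bst2 (CD317) was at 2325 ± 163 CPM in pDC, beside 85.7 ± 8.97 for cDC1 and 68.0 ± 5.36 for cDC2. Among identity genes of the subsets, Xcr1 averaged 936 ± 9.33 CPM in cDC1, whereas cDC2 held 49.7 ± 15.7 and pDC 4.64 ± 3.86. For Itgam (CD11b), cDC2 held 235 ± 13.5 CPM, cDC1 11.6 ± 4.16 and pDC 11.3 ± 4.0. For Siglech, pDC held 4752 ± 394 CPM, cDC1 27.1 ± 6.27 and cDC2 17.0 ± 5.59. Other listed markers were shared or higher elsewhere. Irf8, listed for cDC1, and Cd4, listed for cDC2, were highest in pDC (4244 ± 274 and 1369 ± 73.1 CPM). Batf3 kept 72.2% of its cDC1 level in cDC2. Sirpa and Irf4 kept 53.9% and 76.3% of their cDC2 levels in pDC. The summed level of 11 macrophage and monocyte genes ranged from 455 to 711 CPM in cDC1, from 2010 to 2810 in cDC2 and from 2290 to 3570 in pDC, where Ly6c2 alone stood at 2226 ± 424. Sums for the other marker lists were lower: 4.05 to 120 CPM for 7 neutrophil genes over all libraries, 9.72 to 89.1 for 6 NK cell genes, 56.9 to 101 for 6 B cell genes, 12.6 to 40.6 for 6 T cell genes and 36.6 to 67.9 for 6 erythroid genes. No marker on any list was at 0 in all 3 libraries of a subset. In bulk samples such as these, fewer cells that express a gene and less RNA per cell cannot be told apart.

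The promoter stretches below belong to Clec9a and Cd207, which were highest in cDC1, Clec7a, highest in cDC2, and Cd209a, highest in pDC. They are the 250 bases before the RefSeq start on GRCm38, 5′ to 3′ on the strand of the gene. Of the 10 genes, 7 had an entry in the RefSeq promoter table, and 4 of them had a start that coincides with a GENCODE start and no exon of their own in the stretch. Only these 4 are shown, and Clec4a4 had no entry. Clec7a has a second RefSeq start close by, at position 129472785 beside 129472779, that is not a GENCODE start and is not shown. Clec9a lies on chromosome 6, plus strand, with the stretch at chr6:129408612-129408861. The stretch of Cd207 is chr6:83677858-83678107 and that of Clec7a chr6:129472780-129473029, both on the minus strand. The stretch of Cd209a is chr8:3748985-3749234, minus strand.
Clec9a: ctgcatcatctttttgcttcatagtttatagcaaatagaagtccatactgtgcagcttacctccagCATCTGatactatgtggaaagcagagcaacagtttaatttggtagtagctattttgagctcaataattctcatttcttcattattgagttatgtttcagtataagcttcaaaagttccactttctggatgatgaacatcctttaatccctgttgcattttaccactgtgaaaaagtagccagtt
Cd207: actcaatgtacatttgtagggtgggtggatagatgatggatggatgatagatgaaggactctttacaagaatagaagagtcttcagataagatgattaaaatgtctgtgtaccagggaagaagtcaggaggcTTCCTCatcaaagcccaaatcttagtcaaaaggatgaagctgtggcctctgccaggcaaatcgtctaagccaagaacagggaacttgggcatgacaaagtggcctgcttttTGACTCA
Clec7a: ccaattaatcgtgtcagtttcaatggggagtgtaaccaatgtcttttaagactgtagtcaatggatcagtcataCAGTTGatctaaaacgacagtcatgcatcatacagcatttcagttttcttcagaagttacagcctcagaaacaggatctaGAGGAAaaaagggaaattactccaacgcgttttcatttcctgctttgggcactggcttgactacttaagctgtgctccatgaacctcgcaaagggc
Cd209a: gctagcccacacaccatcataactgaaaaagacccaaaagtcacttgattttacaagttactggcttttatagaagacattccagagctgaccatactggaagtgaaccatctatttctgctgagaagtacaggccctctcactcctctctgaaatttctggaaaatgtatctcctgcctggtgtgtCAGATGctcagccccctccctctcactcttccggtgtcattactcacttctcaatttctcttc
Capitals mark matches, on either strand, to the letters searched. These were GAGGAA (core of PU.1 and other Ets factors), GAAANNGAA (IRF), TGANTCA (AP-1 and BATF), CANCTG (E-box of E proteins) and TGTGGT (RUNX), none of which contains another. The Cd207 stretch held GAGGAA on the minus strand 118 bases from the start and TGANTCA 7 bases from it. Clec9a held CANCTG at 184 bases, Cd209a held it at 63, and Clec7a held it at 176 and GAGGAA at 96. Among 32851 promoter entries of the same length, 23.3% held GAGGAA, 7.13% GAAANNGAA, 6.75% TGANTCA, 44.8% CANCTG and 14.0% TGTGGT. These matches are letters in a window, and no factor binding was measured.

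The C-type lectin receptors differed in which DC subset held most of their transcript, and several were shared between subsets. Clec9a, Ly75 and Cd207 were highest in cDC1, Clec4a4, Clec4a2, Clec7a and Clec4n in cDC2, and Cd209a, Clec10a and Clec12a in pDC. In one edgeR quasi-likelihood fit over the 9 libraries, with Benjamini-Hochberg adjustment over all genes tested and a threshold of 0.05, all 10 members differed between cDC2 and cDC1, 6 of them higher in cDC2 and 4 higher in cDC1. Of all genes tested, 24.4% differed in that comparison, 12.7% higher in cDC2 and 11.7% higher in cDC1. Between pDC and cDC1, 9 of the 10 differed, 3 higher in pDC and 6 higher in cDC1, against 48.6% of all genes (24.3% higher in pDC and 24.4% higher in cDC1). Between pDC and cDC2, all 10 differed, 4 higher in pDC and 6 higher in cDC2, against 45.8% of all genes (22.5% and 23.3%). The test for any difference among the subsets called all 10, against 56.0% of all genes, and 9 of 10 passed in each of the 3 comparisons, against 11.3% of all genes. The median size of the log2 fold change over the members was 2.86, 1.86 and 2.89 for cDC2 against cDC1, pDC against cDC1 and pDC against cDC2, beside 0.36, 0.63 and 0.59 over all genes tested. The 3 comparisons share libraries and are not independent of each other, and the members were picked for their known use as subset markers.

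**Figure D1:**
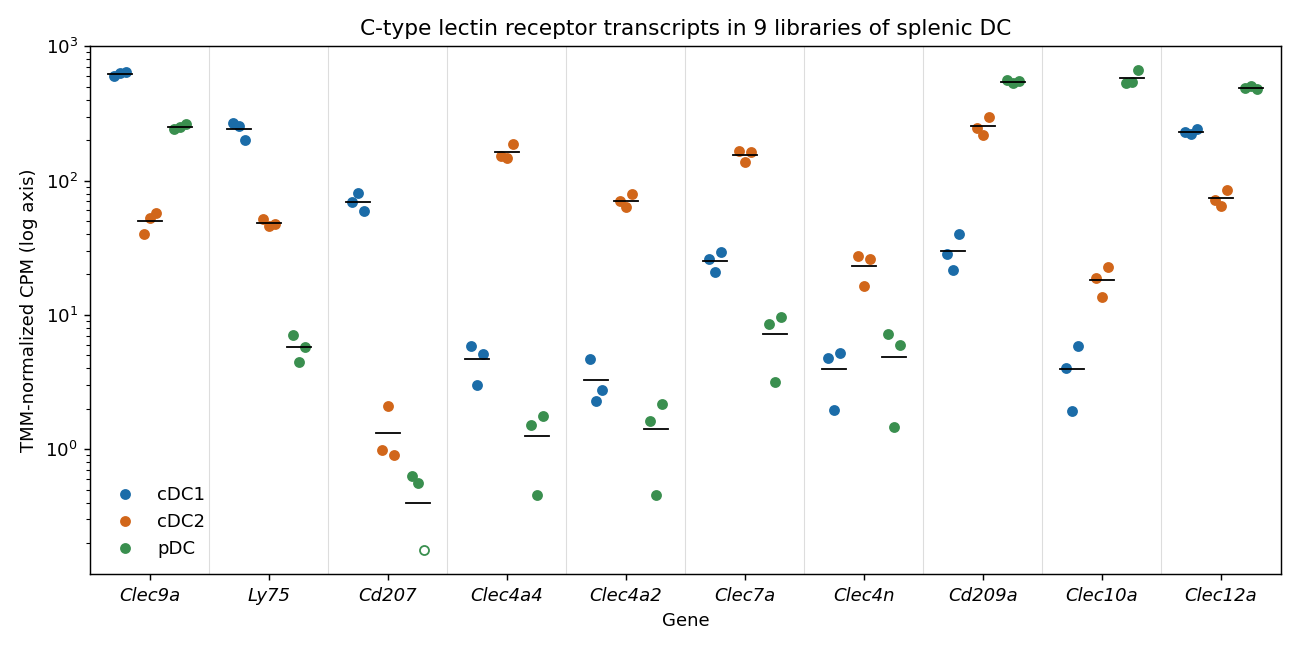
TMM-normalized CPM (log axis) of the 10 C-type lectin receptor genes in each of the 9 libraries, as points coloured by subset, with a black line at each subset mean (n = 3); the open point is the pDC library with 0 counts of Cd207, drawn at its floor of 3 counts. For Clec4n the cDC1 and pDC points overlap.

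Clec9a, the receptor also called DNGR-1, binds actin filaments exposed by dead cells and is a standard marker of cDC1. The gene lies at chr6:129408862-129424763 on the plus strand (GRCm38, GENCODE M21), with 6 exons in its principal transcript. The 3 cDC1 libraries held 597, 635 and 642 CPM, the pDC libraries 242, 249 and 264, and the cDC2 libraries 40.4, 52.3 and 57.8. The 3 subsets did not overlap, and pDC lay between the others. cDC1 had 12.4-fold more than cDC2 (log2 fold change of cDC2 against cDC1 -3.64, standard error 0.14, edgeR adjusted p = 6e-07) and 2.48-fold more than pDC (log2 fold change of pDC against cDC1 -1.31, standard error 0.13, edgeR adjusted p = 2.07e-05). pDC had 5.01-fold more than cDC2 (log2 fold change 2.33, standard error 0.13, edgeR adjusted p = 6.32e-07). The pDC level was 40.3% of the cDC1 level, and the 7 listed cDC1 genes ranged widely in the same comparison. Xcr1, Tlr3, Itgae and Batf3 stood in pDC at 0.496%, 0.571%, 0.669% and 1.64% of their cDC1 levels, Cadm1 at 10.3% and Cd8a at 23.5%, and Irf8 at 4244 ± 274 CPM in pDC beside 2556 ± 221 in cDC1. In pDC replicate 2, Clec9a was at 98.4% of the mean of the other 2 pDC libraries. There Xcr1 was at 21.8% (1.37 CPM beside 8.90 and 3.65), Tlr3 at 29.6% and Batf3 at 31.3%. Cd8a was at 74.3%, Itgae at 83.0%, Cadm1 at 84.0% and Irf8 at 96.6%. In cDC2 the share was 8.03% for Clec9a. The cDC1 genes ranged widely there too, with Batf3 at 72.2%, Tlr3 at 9.68%, Xcr1 at 5.30%, Cadm1 at 5.21%, Itgae at 3.16% and Cd8a at 1.47%. Irf8 was at 269 ± 48.0 CPM in cDC2. The part of other cells in the Clec9a levels of pDC and cDC2 was not tested. The Clec9a and Clec1b annotations share an exon stretch on the same strand, which covers 3.23% of the 75-base windows of Clec9a, and Clec1b itself reached at most 5.26 CPM.

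Ly75 encodes DEC-205, an endocytic receptor with a chain of lectin-like domains that has been used to target antigen to cDC1. It lies at chr2:60292103-60383303 on the minus strand and is the longest of the members, with 35 exons. In cDC1 its level was 269, 255 and 200 CPM, in cDC2 51.8, 45.7 and 47.5, and in pDC 7.11, 4.46 and 5.77. The subsets formed a descending series without overlap. cDC1 exceeded cDC2 by 4.99-fold (log2 fold change of cDC2 against cDC1 -2.32, standard error 0.17, edgeR adjusted p = 1.51e-05) and pDC by 41.7-fold (log2 fold change of pDC against cDC1 -5.37, standard error 0.20, edgeR adjusted p = 6.21e-08). cDC2 exceeded pDC by 8.36-fold (log2 fold change of pDC against cDC2 -3.05, standard error 0.19, edgeR adjusted p = 9.49e-07). Ly75 in cDC2 was thus at 20.0% of its cDC1 level and in pDC at 2.40%. Of its 75-base windows, 1.51% lie in the antisense gene Gm13571.

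Cd207 encodes langerin, a mannose-binding receptor best known from the Birbeck granules of Langerhans cells. The gene lies at chr6:83671215-83677857 on the minus strand, with 6 exons. It was counted at 69.8, 80.5 and 59.3 CPM in cDC1 and at 0.988, 2.10 and 0.904 in cDC2. In pDC it had 21, 11 and 0 reads, or 0.636, 0.558 and 0 CPM. The lowest cDC1 library was far above the highest library of the other subsets. The difference was 52.5-fold between cDC1 and cDC2 (log2 fold change of cDC2 against cDC1 -5.69, standard error 0.49, edgeR adjusted p = 3.18e-05) and 176-fold between cDC1 and pDC (log2 fold change of pDC against cDC1 -7.29, standard error 0.56, edgeR adjusted p = 3.69e-06). The step from cDC2 to pDC was close to the threshold (log2 fold change -1.60, standard error 0.58, edgeR adjusted p = 0.0471). That call was lost in 9 of 16 alternatives, among them fits without cDC1 replicate 1, 2 or 3 (adjusted p = 0.0708, 0.0659 and 0.0583 from edgeR), without cDC2 replicate 1 or 2 (edgeR adjusted p = 0.0551 and 0.190) and without pDC replicate 2 (edgeR adjusted p = 0.0714), so an order of cDC2 and pDC is not firm.

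Clec4a4, or DCIR2, is the target of the antibody used to deliver antigen to splenic cDC2, and its tail carries an inhibitory motif. It lies at chr6:122990367-123024105 on the plus strand, with 6 exons. The cDC2 libraries held 152, 147 and 188 CPM, those of cDC1 5.87, 3.00 and 5.15, and those of pDC 1.51, 0.456 and 1.77. All 3 subsets were apart, with cDC2 far above the others. cDC2 had 34.8-fold more than cDC1 (log2 fold change 5.12, standard error 0.36, edgeR adjusted p = 1.07e-05) and 130-fold more than pDC (log2 fold change of pDC against cDC2 -7.01, standard error 0.41, edgeR adjusted p = 7.06e-07). The lower levels also differed, with cDC1 3.75-fold above pDC (log2 fold change of pDC against cDC1 -1.89, standard error 0.39, edgeR adjusted p = 0.00260). Of the 75-base windows of Clec4a4, 12.7% also occur in Clec4a2, so part of its reads could have been assigned to either gene or left out.

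Clec4a2, or DCIR1, is the neighbouring inhibitory receptor, at chr6:123106428-123143999 on the plus strand. Its cDC2 libraries held 70.1, 63.4 and 78.9 CPM, beside 4.70, 2.29 and 2.78 for cDC1 and 1.63, 0.456 and 2.18 for pDC. The pattern was that of Clec4a4 at a lower level, and the highest pDC library lay just below the lowest cDC1 library. cDC2 had 21.7-fold more than cDC1 (log2 fold change 4.42, standard error 0.41, edgeR adjusted p = 5.23e-05) and 49.8-fold more than pDC (log2 fold change of pDC against cDC2 -5.63, standard error 0.45, edgeR adjusted p = 5.52e-06). cDC1 and pDC differed by 2.29-fold (log2 fold change of pDC against cDC1 -1.21, standard error 0.43, edgeR adjusted p = 0.0419). That last call was lost in 9 of 16 alternatives, including fits without cDC1 replicate 1 (edgeR adjusted p = 0.185), cDC2 replicate 1, 2 or 3 (edgeR adjusted p = 0.0647, 0.0552 and 0.0527) and pDC replicate 1 or 2 (edgeR adjusted p = 0.0710 and 0.0632). Per kilobase of exon, Clec4a4 exceeded Clec4a2 in cDC2 by a ratio of 8.19, 8.76 and 8.96 in the 3 libraries. These ratios depend on the annotated exon lengths, 776 bases for Clec4a4 and 2926 for Clec4a2, and the difference in CPM was smaller.

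Clec7a encodes dectin-1, the receptor for fungal beta-glucan. It lies at chr6:129461591-129472779 on the minus strand, and both the count table and GENCODE M21 class it as a polymorphic pseudogene. The counts were nevertheless high in cDC2, at 167, 139 and 163 CPM, with 26.0, 20.8 and 29.5 in cDC1 and 8.60, 3.19 and 9.66 in pDC. The subsets did not overlap. cDC2 had 6.15-fold more than cDC1 (log2 fold change 2.62, standard error 0.32, edgeR adjusted p = 0.000281) and 21.9-fold more than pDC (log2 fold change of pDC against cDC2 -4.45, standard error 0.36, edgeR adjusted p = 5.66e-06). cDC1 had 3.55-fold more than pDC (log2 fold change of pDC against cDC1 -1.82, standard error 0.33, edgeR adjusted p = 0.00121). In cDC1, Clec7a stood at 16.2% of its cDC2 level, beside 4.93% for Itgam, 2.44% for Dtx1 and 17.3% for Esam, all listed as cDC2 markers.

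Clec4n encodes dectin-2, which binds mannans of fungi. It lies at chr6:123229843-123247021 on the plus strand and was the lowest of the 4 members that led in cDC2. In cDC2 it was measured at 27.4, 16.4 and 26.0 CPM, in cDC1 at 4.77, 1.96 and 5.21, and in pDC at 7.17, 1.47 and 5.95. cDC2 lay above both other subsets in every library, whereas cDC1 and pDC overlapped. cDC2 had 5.85-fold more than cDC1 (log2 fold change 2.56, standard error 0.55, edgeR adjusted p = 0.00703) and 4.79-fold more than pDC (log2 fold change of pDC against cDC2 -2.25, standard error 0.54, edgeR adjusted p = 0.00657). Between pDC and cDC1 the log2 fold change was 0.31 with a standard error of 0.54, pDC was higher in 2 of 3 same-numbered pairs, and the test was not passed (edgeR adjusted p = 0.669). The sign of that difference turned without cDC1 replicate 2 (-0.03) and without pDC replicate 1 (-0.10).

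Genes of other cell types differed between the same libraries. Of the 11 macrophage and monocyte genes, 8 were highest in cDC2, Ly6c2 and Ccr2 in pDC and Vcam1 in cDC1. For Csf1r, cDC2 had 371 ± 37.5 CPM (SD, n = 3), cDC1 64.0 ± 19.3 and pDC 60.0 ± 35.6, and for C1qa the levels were 42.6 ± 16.9, 9.68 ± 5.24 and 15.3 ± 10.6. Within pDC, the library of replicate 2 was lowest for Clec7a, Clec4n, Clec4a2, Clec4a4 and Ly75. Its levels were 35.0%, 22.4%, 23.9%, 27.8% and 69.2% of the mean of the other 2 pDC libraries. The same library was lowest for Lyz2 (48.9 CPM beside 176 and 302), Csf1r (20.4 beside 70.4 and 89.1), C1qa (4.06 beside 16.8 and 25.0), Itgam (6.64 beside 13.7 and 13.4) and Xcr1. All 11 macrophage and monocyte genes were lowest there, as were 4 of 7 neutrophil genes. S100a8 was at 8.10% and S100a9 at 14.4% of the mean of the other 2, but Retnlg, at 0.659 CPM, was at 335%. Of the other lists, 5 of 6 NK cell, 5 of 7 cDC1, 4 of 6 erythroid and 3 of 6 cDC2 genes were lowest there. So were 2 of 6 pDC, 1 of 6 B cell and 1 of 6 T cell genes. Cd207, also low in pDC, was not lowest in that library, with 0.558 CPM in replicate 2 beside 0.636 and 0. For the members that were high in pDC, replicate 2 was at 95.7% of the other 2 for Cd209a, 90.3% for Clec10a and 104% for Clec12a. In cDC1, replicate 2 was lowest for 7 of the 10 members. These were Clec10a (38.8% of the mean of the others), Clec4n (39.3%), Clec4a4 (54.5%), Clec4a2 (61.4%), Cd209a (62.7%), Clec7a (74.9%) and Clec12a (94.1%). Csf1r was at 55.6% and C1qa at 30.1% there. Of the lists, 10 of 11 macrophage and monocyte, 6 of 6 NK cell, 5 of 7 neutrophil and 5 of 6 cDC2 genes were lowest. The counts were 4 of 6 for pDC, 3 of 6 for erythroid, 2 of 7 for cDC1, 1 of 6 for B cell and 1 of 6 for T cell genes. Replicate 2 of cDC2 was lowest for 8 of the 10 members, all but Clec9a and Cd207, and for 10 of the 11 macrophage and monocyte genes. There Clec4n was at 61.3%, Clec7a at 83.8%, Clec4a2 at 85.1% and Clec4a4 at 86.6% of the mean of the others, and C1qa at 56.2% and Csf1r at 83.9%. That library was also lowest for 4 of 7 neutrophil, 4 of 6 pDC, 3 of 6 cDC2, 2 of 6 B cell and 2 of 6 erythroid genes. For cDC1, NK cell and T cell genes it was lowest for 1 of 7, 1 of 6 and 0 of 6. How many of all genes tested were lowest in replicate 2 was not counted for any subset. The part of other cell types in the low levels of these receptors, and in the cDC2 levels, was not tested.

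**Figure D2:**
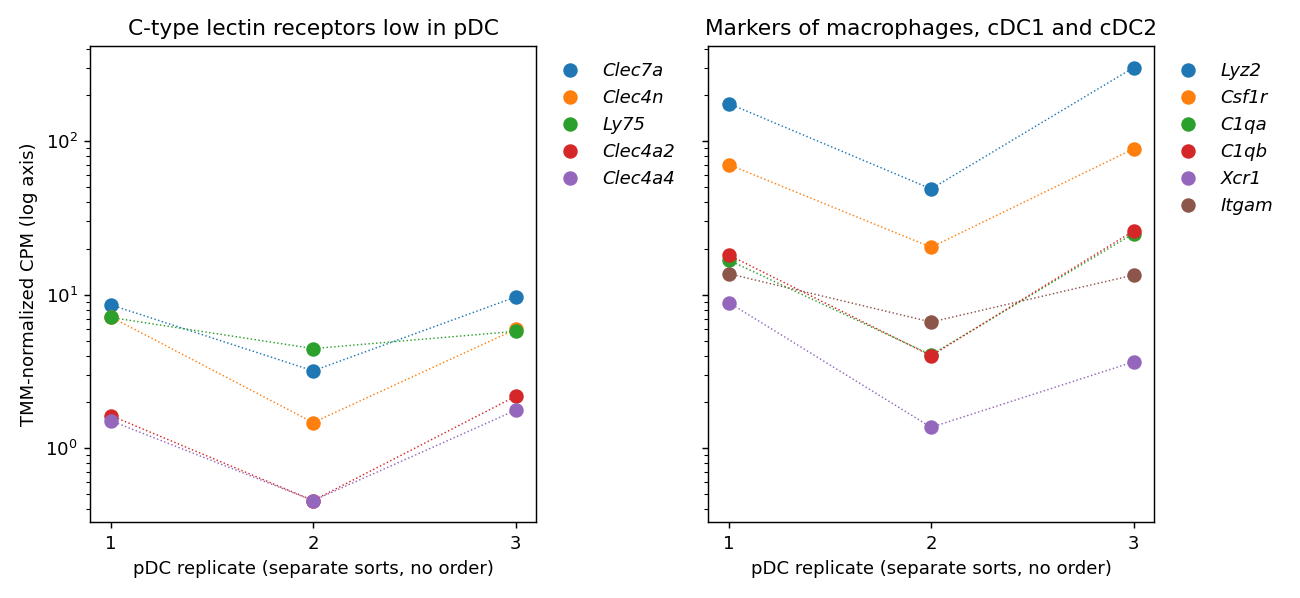
TMM-normalized CPM (log axis) in the 3 pDC libraries, for 5 C-type lectin receptor genes that were low in pDC (left) and for markers of macrophages (Lyz2, Csf1r, C1qa, C1qb), cDC1 (Xcr1) and cDC2 (Itgam) (right); dotted lines join the points of a gene only to guide the eye. Replicate 2 is the lowest of the 3 for every gene drawn, for example 3.19 CPM for Clec7a and 48.9 CPM for Lyz2, but the genes drawn are a selection. Not drawn and not lowest in replicate 2 are Cd207, Irf8 and Itgae of the cDC1 list, and Sirpa, Cd4 and Dtx1 of the cDC2 list.

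Cd209a, a mouse relative of human DC-SIGN that binds mannose-rich glycans, was the strongest of the members in pDC per length of transcript. It lies at chr8:3743397-3748984 on the minus strand, with 7 exons. In pDC its level was 560, 530 and 548 CPM, in cDC2 245, 220 and 299, and in cDC1 28.6, 21.5 and 39.9. The subsets formed 3 steps without overlap. pDC had 18.2-fold more than cDC1 (log2 fold change 4.19, standard error 0.23, edgeR adjusted p = 4.68e-07) and 2.14-fold more than cDC2 (log2 fold change 1.10, standard error 0.20, edgeR adjusted p = 0.00141). cDC2 had 8.49-fold more than cDC1 (log2 fold change 3.09, standard error 0.22, edgeR adjusted p = 9.91e-06). cDC2 thus held 46.6% of the pDC level, and the 6 listed pDC genes stood in cDC2 at 0.269% (Ly6d), 0.358% (Siglech), 0.740% (Ccr9), 2.92% (Bst2), 5.13% (Tcf4) and 10.6% (Spib) of their pDC levels.

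Clec10a encodes a glycan-binding receptor and lies at chr11:70156197-70170834 on the plus strand, with 10 exons. The pDC libraries held 537, 544 and 667 CPM, those of cDC2 18.8, 13.5 and 22.7, and those of cDC1 4.01, 1.92 and 5.89. pDC was far above both conventional subsets, which themselves did not overlap. The difference was 148-fold from cDC1 to pDC (log2 fold change 7.24, standard error 0.40, edgeR adjusted p = 5.03e-07) and 31.8-fold from cDC2 to pDC (log2 fold change 4.99, standard error 0.35, edgeR adjusted p = 2.44e-06). cDC2 exceeded cDC1 by 4.65-fold (log2 fold change 2.25, standard error 0.34, edgeR adjusted p = 0.000942). Of the 75-base windows of Clec10a, 4.44% also occur in its neighbour Mgl2, which encodes the related receptor. Per kilobase, Clec10a exceeded Mgl2 in pDC by a ratio of 16.2, 19.4 and 12.7.

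Clec12a encodes an inhibitory receptor that recognises uric acid crystals of dead cells, and it lies at chr6:129342691-129365303 on the plus strand. The level reached 485, 504 and 484 CPM in pDC, then 230, 222 and 241 in cDC1, and 72.3, 64.3 and 84.8 in cDC2. The 3 subsets did not overlap and the spread within each was small. pDC had 2.13-fold more than cDC1 (log2 fold change 1.09, standard error 0.11, edgeR adjusted p = 2.54e-05) and 6.66-fold more than cDC2 (log2 fold change 2.74, standard error 0.12, edgeR adjusted p = 1.56e-07). cDC1 had 3.13-fold more than cDC2 (log2 fold change of cDC2 against cDC1 -1.65, standard error 0.11, edgeR adjusted p = 8.55e-06). Clec12a and Clec9a, which lie close together on chromosome 6, were the members lower in cDC2 than in both other subsets, but their order in pDC and cDC1 was opposite.

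**Figure D3:**
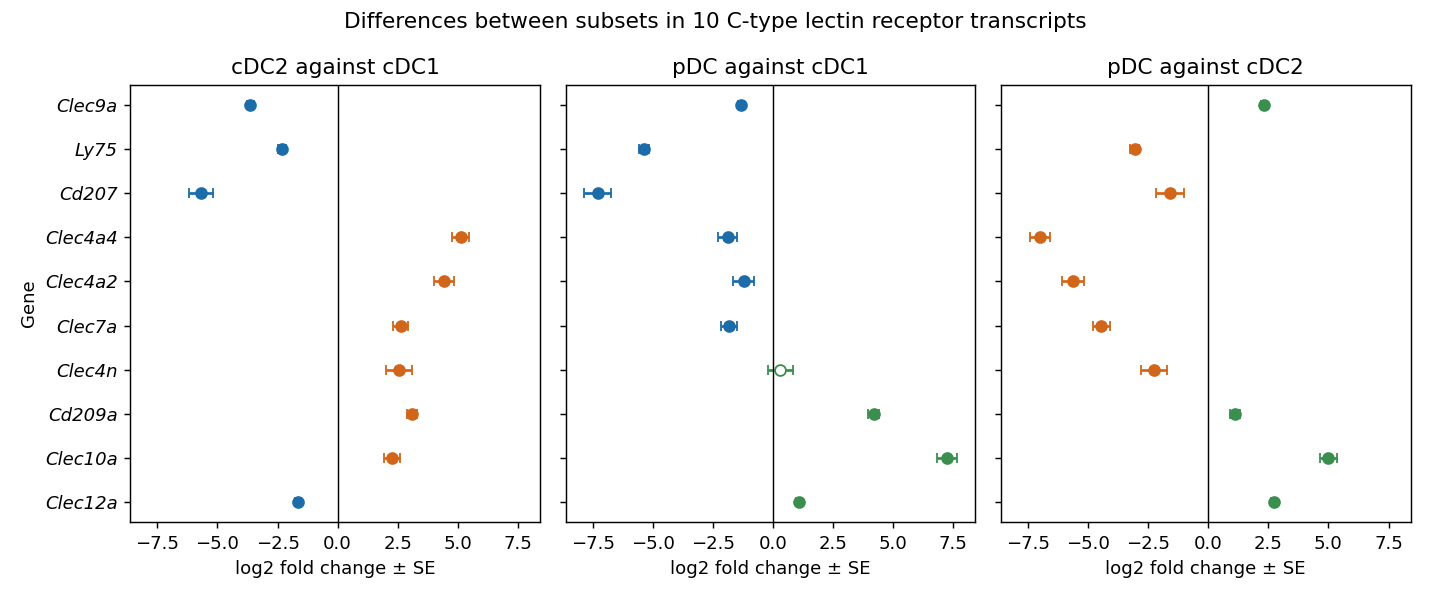
Log2 fold change ± standard error of the 10 genes in each of the 3 comparisons from the edgeR fit (3 libraries per subset), with points coloured by the subset that was higher and an open point where the adjusted p was above 0.05. The values run from -7.29 (Cd207, pDC against cDC1) to 7.24 (Clec10a, pDC against cDC1), and the open point is Clec4n in pDC against cDC1.

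Levels of different genes were compared per kilobase of exon, as CPM per kb. Summed over the 10 genes, the level was 352 ± 3.48 CPM per kb (SD, n = 3) in cDC1, 513 ± 66.9 in cDC2 and 720 ± 31.8 in pDC. Clec9a made up 53.9% ± 1.73 of the sum in cDC1, followed by Cd207 with 13.1% ± 2.07, Clec12a with 11.9% ± 0.410 and Ly75 with 9.93% ± 1.59. Over the libraries these last shares ran from 10.9% to 15.1%, 11.4% to 12.2% and 8.12% to 11.1%, so that Cd207 overlapped both others. In cDC2, Clec4a4 led with 40.8% ± 1.20, ahead of Cd209a with 31.3% ± 0.836 and Clec7a with 11.6% ± 1.09. That order depends on the annotated exon length, 776 bases for Clec4a4 (708 of them coding) and 1583 for Cd209a. In CPM, Cd209a was the higher of these in cDC2, at 255 ± 40.2 beside 162 ± 21.9 for Clec4a4. In pDC, Cd209a led with 47.9% ± 1.95, ahead of Clec10a with 27.8% ± 2.33, Clec12a with 12.4% ± 0.776 and Clec9a with 10.6% ± 0.295. The lead of Cd209a over Clec10a also depends on the exon length, 1583 beside 2899 bases. In CPM, Clec10a had the higher mean in pDC, at 582 ± 73.1 beside 546 ± 15.1 for Cd209a, and the libraries overlapped. Per kilobase, the leading receptor of each subset was the same in all 3 libraries. With the longest transcript in place of all exons as the length, the 3 leading shares were 49.2%, 38.1% and 43.1%. The length of Clec4a4 is 776 bases either way, so that setting does not test it.

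**Figure D4:**
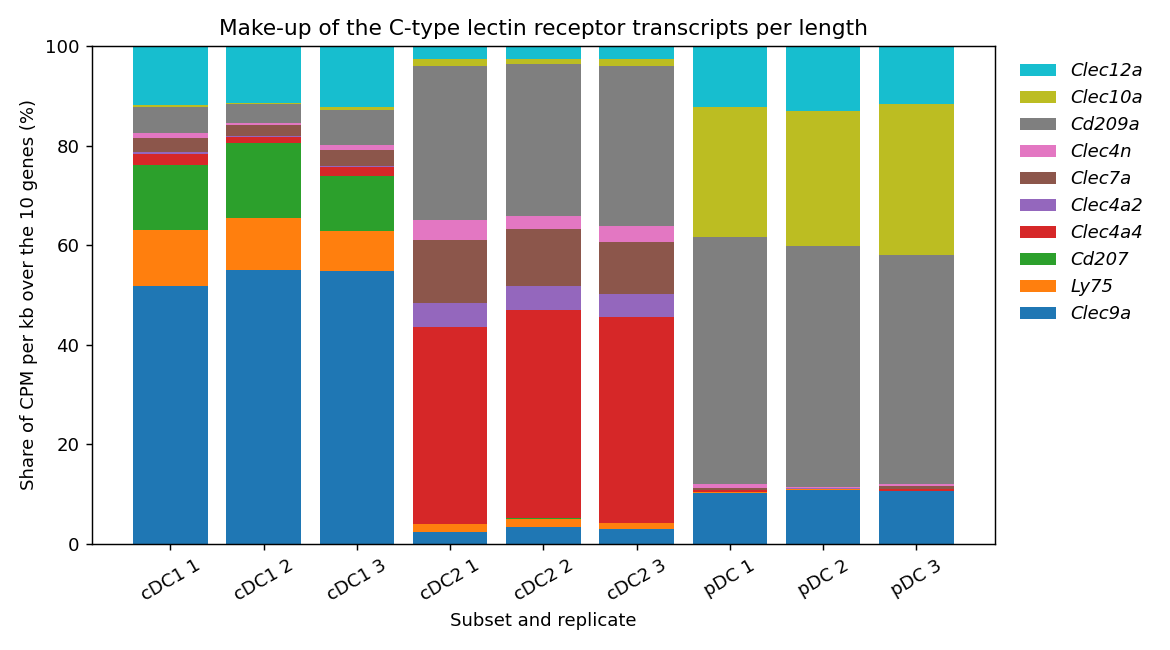
Share of each gene in the summed CPM per kb of the 10 C-type lectin receptor genes (%, stacked to 100) in each of the 9 libraries. Clec9a is the largest part in the cDC1 bars (53.9% on average), Clec4a4 in the cDC2 bars (40.8%) and Cd209a in the pDC bars (47.9%).

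Most of the members lie in gene clusters, whose other genes were examined from a list of 34 other C-type lectin receptors. Of these, 24 could be tested and 11 of the 34 had a mean under 1 CPM in every subset. In cDC2 against cDC1, 15 of the 24 passed (12 higher in cDC2 and 3 higher in cDC1), in pDC against cDC1, 16 passed (12 higher in pDC and 4 higher in cDC1), and in pDC against cDC2, 20 passed (9 higher in pDC and 11 higher in cDC2). Over all genes tested the shares were 24.4%, 48.6% and 45.8%. Under the replicate block, 20, 17 and 21 of the 24 passed. The calls over all 13819 genes tested then also rose, from 3370, 6718 and 6328 to 4916, 8094 and 7663. Without the block, the median log2 fold changes of the 24 lectins were 1.61, 1.23 and 0.04, beside 0.03, 0.02 and -0.01 over all genes tested. The Dectin-2 cluster on chromosome 6 holds 9 listed genes over 368 kb, among them Clec4a4, Clec4a2 and Clec4n. Clec4a1 and Clec4a3, further receptors of the DCIR group, shared the cDC2 pattern. For Clec4a1, cDC2 held 165 ± 17.4 CPM, beside 4.61 ± 2.63 for cDC1 and 4.36 ± 2.81 for pDC (log2 fold change of cDC2 against cDC1 5.18, standard error 0.61, edgeR adjusted p = 0.000214). Clec4a3 was at 57.5 ± 4.92, 1.80 ± 0.896 and 3.46 ± 1.69 (log2 fold change 4.97, standard error 0.44, edgeR adjusted p = 3.98e-05). Clec4b2, which lies between Clec4a2 and Clec4n, went the other way, with 25.0, 25.7 and 18.8 CPM in cDC1 and 0.542, 1.65 and 1.91 in cDC2 (log2 fold change of cDC2 against cDC1 -4.11, standard error 0.57, edgeR adjusted p = 0.000568). In pDC it was counted in 1 of the 3 libraries, at 0.242 CPM.

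The Cd209 cluster on chromosome 8 showed the pDC pattern in more than one gene. Cd209d stood at 498, 451 and 457 CPM in pDC, beside 14.0 ± 4.81 in cDC1 and 6.70 ± 1.71 in cDC2 (log2 fold change of pDC against cDC2 6.14, standard error 0.28, edgeR adjusted p = 1.91e-07). Unlike Cd209a, it was lower in cDC2 than in cDC1 (log2 fold change of cDC2 against cDC1 -1.06, standard error 0.24, edgeR adjusted p = 0.00993). Per kilobase, the ratio of Cd209a to Cd209d in pDC was 0.653, 0.682 and 0.696, so Cd209d exceeded Cd209a in each pDC library. Cd209c reached 36.9 ± 5.27 CPM in pDC, beside 0.702 ± 0.431 for cDC2 and 0.0885 ± 0.0912 for cDC1, the last of which is at the floor. Cd209e reached 23.4 ± 8.87 CPM in pDC, beside 5.67 ± 1.45 for cDC1 and 2.82 ± 1.41 for cDC2. Cd209b went the other way, with 9.40 ± 3.83 CPM in cDC2 beside 0.191 ± 0.156 in pDC and 0.102 ± 0.0932 in cDC1. Its log2 fold change of pDC against cDC2 was -5.43 (standard error 0.67, edgeR adjusted p = 0.000109). Mgl2, next to Clec10a on chromosome 11, was also led by pDC with 27.4 ± 9.30 CPM, beside 6.27 ± 2.89 for cDC2 and 0.603 ± 0.477 for cDC1. Cd302, next to Ly75 on chromosome 2, was highest in cDC2 at 15.8 ± 1.48 CPM, with 5.14 ± 0.849 in cDC1 and 2.97 ± 2.69 in pDC, and passed between pDC and cDC2 (log2 fold change -2.44, standard error 0.56, edgeR adjusted p = 0.00530). Between cDC2 and cDC1 it missed the threshold (log2 fold change 1.62, standard error 0.54, edgeR adjusted p = 0.0544), with cDC2 higher in 3 of 3 same-numbered pairs and no overlap.

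**Figure D5:**
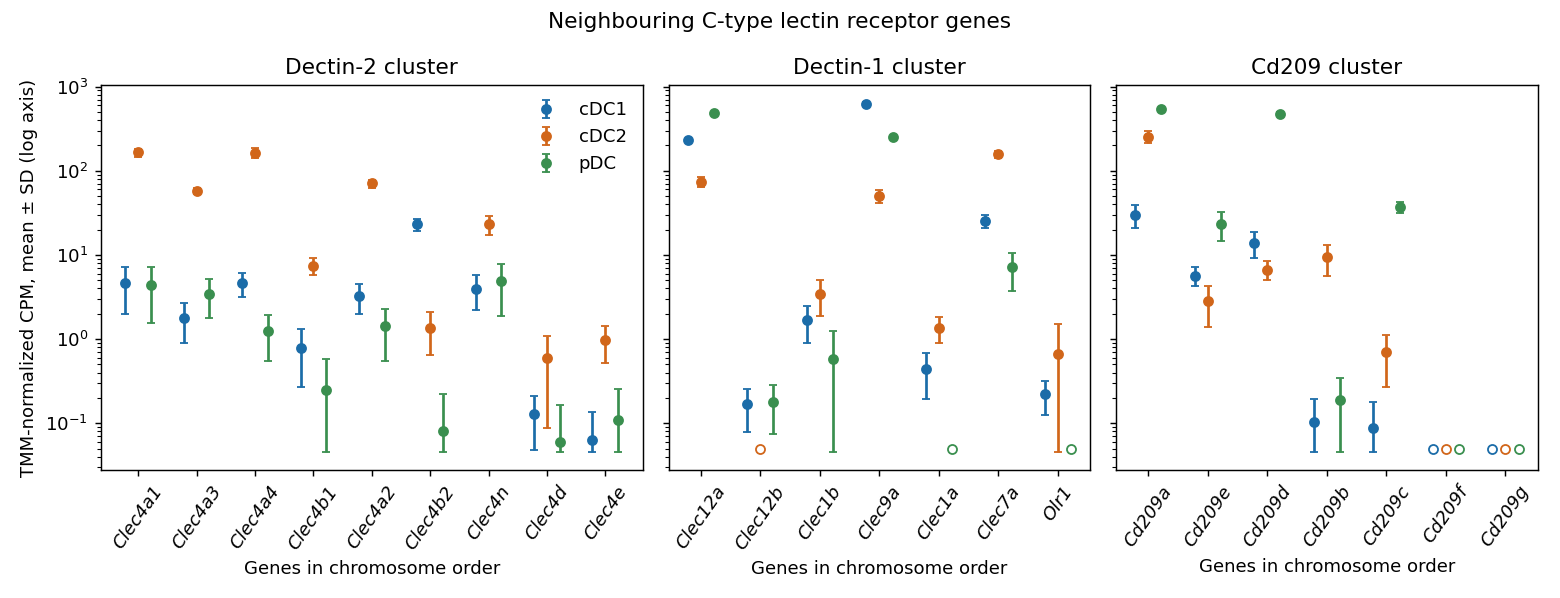
Mean ± SD (n = 3) of TMM-normalized CPM (log axis) by subset for C-type lectin receptor genes of 3 clusters, in chromosome order without scale; open points mark means under 0.05 CPM, drawn at that value, and lower bars that would pass below it end at the bottom of the axis range. In the Dectin-2 cluster cDC2 is highest for each gene with a mean of at least 1 CPM except Clec4b2, the Dectin-1 cluster holds genes led by each of the subsets, and in the Cd209 cluster pDC is highest for 4 of the 5 genes that reach 1 CPM.

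The signalling partners of these receptors were taken from 2 lists. Of 14 activating genes, all tested, 10 passed in cDC2 against cDC1 (8 higher in cDC2 and 2 higher in cDC1), 9 in pDC against cDC1 (5 and 4) and 11 in pDC against cDC2 (5 higher in pDC and 6 higher in cDC2). Over all genes tested 24.4%, 48.6% and 45.8% passed. The median log2 fold changes of the 14 genes were 0.45, 0.16 and -0.19, beside 0.03, 0.02 and -0.01 over all genes. Fcer1g, the adaptor chain of dectin-2, was low in cDC1 at 55.1 ± 19.8 CPM and stood at 382 ± 51.9 in cDC2 and 427 ± 80.7 in pDC. cDC2 exceeded cDC1 in it by a log2 fold change of 2.79 (standard error 0.26, edgeR adjusted p = 5e-05). Tyrobp, a related adaptor, rose from 375 ± 42.1 CPM in cDC1 through 782 ± 59.2 in cDC2 to 2283 ± 168 in pDC. Syk took the same order, with 130 ± 26.8, 323 ± 25.6 and 492 ± 64.6 CPM, and passed in each comparison (edgeR adjusted p = 0.000300, 8.79e-06 and 0.0113 for cDC2 against cDC1, pDC against cDC1 and pDC against cDC2). Prkcd, the kinase between Syk and Card9, stood at 179 ± 13.5, 272 ± 8.45 and 503 ± 29.9 CPM. Card9 itself was lowest in pDC, at 5.88 ± 2.46 CPM beside 15.5 ± 0.938 in cDC1 and 20.9 ± 5.80 in cDC2 (log2 fold change of pDC against cDC2 -1.84, standard error 0.31, edgeR adjusted p = 0.000889). Malt1 was highest in cDC2, at 172 ± 22.7 CPM, with 66.5 ± 8.87 in cDC1 and 111 ± 15.3 in pDC. Vav3 was also low in pDC, with 16.2 ± 1.10 CPM beside 63.6 ± 7.28 for cDC1 and 41.9 ± 3.12 for cDC2. Smaller differences were seen in Lyn (391 ± 18.1, 537 ± 9.74 and 421 ± 14.1 CPM in that order of cDC1, cDC2 and pDC), Vav1 (255 ± 19.1, 193 ± 6.38 and 302 ± 14.2) and Nfatc2 (72.4 ± 7.59, 98.4 ± 2.31 and 44.1 ± 2.91), each past the threshold in at least 1 comparison.

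Of the 4 phosphatases recruited by inhibitory receptors, 3 passed in cDC2 against cDC1 (2 higher in cDC2) and 4 in pDC against cDC1 (2 higher in pDC). In pDC against cDC2, 2 passed, both higher in pDC, a share near that of all genes tested. Over all genes tested 24.4%, 48.6% and 45.8% passed in these comparisons. The number in pDC against cDC2 was 1 without cDC2 replicate 1 or 3 or pDC replicate 1 or 2. With the replicate number as a block it was 3, and 7663 of 13819 genes passed. Ptpn6, which encodes SHP-1, climbed from 260 ± 33.2 CPM in cDC1 over 744 ± 69.7 in cDC2 to 968 ± 97.0 in pDC, so it was higher in the subset that held Clec4a4 and Clec4a2 than in cDC1 (log2 fold change 1.52, standard error 0.13, edgeR adjusted p = 2.79e-05). Inpp5d went the other way, with 667 ± 92.2 CPM for cDC1, 406 ± 21.2 for cDC2 and 372 ± 51.4 for pDC (log2 fold change of cDC2 against cDC1 -0.72, standard error 0.13, edgeR adjusted p = 0.00336). Inppl1 was highest in pDC, at 107 ± 5.61 CPM beside 23.8 ± 2.37 and 32.4 ± 3.08. Ptpn11 was lower in pDC than in cDC1, at 102 ± 6.09 beside 142 ± 19.2 CPM (edgeR adjusted p = 0.00698).

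Genes whose profile over the 9 libraries was most like that of a member were sought among 9627 genes, by Pearson's r of log2(CPM + 1). With 3 subsets that differ widely, such r values mostly reflect the 3 subset means and are given as a description. Clec4a4 and Clec4a2 each came closest to Tgm2, a transglutaminase (r = 0.9985 and 0.9988), which had 987 CPM in cDC2 beside 29.1 for cDC1 and 13.7 for pDC, and Clec4a4 was the second nearest gene to Clec4a2. Clec4n came closest to the complement gene C3 (r = 0.9839) and to Csf1r (r = 0.9785), the receptor for macrophage colony-stimulating factor. Ly75 was nearest to Cbr3 and to the co-stimulatory gene Cd86 (r = 0.9965 for both), and Cd86 had 493 CPM in cDC1 beside 121 for cDC2 and 13.4 for pDC. Cd207 was nearest to Fuca1 (r = 0.9974), Clec9a to Ppm1m (r = 0.9954) and Mlec (r = 0.9952), and Clec7a to Cd244 (r = 0.9961) and Ifitm6 (r = 0.9956). Cd209a was nearest to Acap1 (r = 0.9979) and Ctsa (r = 0.9973), Clec10a to Prdx5 (r = 0.9972) and Rps6ka1 (r = 0.9971), and Clec12a to Prr5 (r = 0.9975) and Gnb4 (r = 0.9958).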

How the data were processed

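RNA from sorted splenic cDC1, cDC2 and pDC (3 libraries each) was read from one end over 75 bases after stranded library preparation from polyadenylated RNA. The authors deposited raw read counts per gene for the 9 libraries, without normalization. The submitters' processing notes name STAR, SAMtools, featureCounts, MultiQC and the build mm10; the versions, the annotation and the strand setting are not given in the sources used here. Where counting ignored strand, reads of overlapping antisense genes cannot be told apart. Every column was used (columns not used: 0), and each was tied to its library by name.

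Counts were analysed with edgeR 4.0.16 in R 4.3.3: filterByExpr with a minimum count of 10, TMM factors, one quasi-likelihood fit of all libraries with subset as the only term, and Benjamini-Hochberg adjustment over all genes tested. The standard error is the size of the log2 fold change divided by the square root of F. CPM divides counts by the filtered library total times its TMM factor; per-length levels divide CPM by the union of GENCODE M21 exons in kb. Shared sequence was measured as 75-base windows of a gene's transcripts found in transcripts of another gene. The fit was tested on simulated data first.

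The members and all lists were chosen with earlier results of these data known. Named are all members, all other lectins and signalling genes past the threshold in a comparison with at least 10 CPM on average in their highest subset and the 2 genes most correlated with each member. Clec1b, Cd209b and Mrc1 fall outside this rule and were chosen after their values were seen. A few genes that the rule selects are not reported here. Same-numbered libraries share a date code, and their deviations from the subset means correlated in each of the 9 pairs (r from 0.266 to 0.543), so the numbers pair the samples. Alternatives were the replicate block, DESeq2 1.42.0, limma-voom (limma 3.58.1), library size only, upper quartile factors, omission of the filter, a minimum of 10 counts in each library, fits of the 6 compared libraries, an adjusted p of 0.01 and each library left out; those for the lists of other genes were added after the data were seen. Figures were plotted in matplotlib 3.10.9 under Python 3.11.15. Stimulated cells, protein data and human cells were not analysed here.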

Additional observations from a re-analysis of the deposited data

How the results depend on the processing

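Of the 30 comparisons of a member between subsets, 27 kept their direction and their side of the threshold in each of the 16 or 17 alternatives run. The other 3 were Clec4a2 in pDC against cDC1 (log2 fold change from -1.54 to -0.82), Cd207 in pDC against cDC2 (from -2.29 to -1.10) and Clec4n in pDC against cDC1, which was not past the threshold in any setting and ran from -0.104 to 0.713, turning sign without cDC1 replicate 2 (-0.025) and without pDC replicate 1 (-0.104). For Clec4a2 the call was also lost with limma-voom (adjusted p = 0.0705), library size only (edgeR adjusted p = 0.0519) and the fit of 6 libraries (edgeR adjusted p = 0.135); for Cd207 these were 0.104, 0.0510 and 0.215. With the replicate number as a block, no member call changed. The called genes on the other lists (lectins, activating genes and phosphatases) then numbered 20, 11 and 3 for cDC2 against cDC1, 17, 11 and 4 for pDC against cDC1, and 21, 11 and 3 for pDC against cDC2. Under the block, Clec4n gave log2 fold changes of 2.65, 0.23 and -2.43 for cDC2 against cDC1, pDC against cDC1 and pDC against cDC2. The calls over all genes went from 3370 to 4916, from 6718 to 8094 and from 6328 to 7663 in these comparisons. At an adjusted p under 0.01, without the block, the calls over all genes in cDC2 against cDC1 numbered 2103. With library size only, 2204 genes were higher in cDC2 and 1287 in cDC1, beside 1760 and 1610, and the median over all genes moved to 0.137 for cDC2 against cDC1 and 0.108 for pDC against cDC1. Counts of called genes on the lists stayed within 1.5 times in 216 of 224 cases. With at least 10 counts in every library, Cd207, Clec4a4 and Clec4a2 were left out of the test, and 12 of the other lectins were tested. Of these 12, 8, 8 and 9 passed in the 3 comparisons, fewer than before because fewer genes were tested. Over all genes 2904, 5444 and 5018 of 10883 passed in that setting. The 2 phosphatases called in pDC against cDC2 became 1 with library size only, and were 1 to 3 with each library left out. With the longest transcript as the length, the leading shares were 49.24% for Clec9a in cDC1, 38.14% for Clec4a4 in cDC2 and 43.06% for Cd209a in pDC, and the length of Clec4a4 itself stayed at 776 bases. Low counts limit the members at the bottom of the range, such as 9 reads of Clec4a4 and of Clec4a2 in pDC replicate 2.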

Other observations

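Several other C-type lectin genes differed between the subsets. Cd72, an inhibitory receptor best known on B cells, reached 138 ± 5.21 CPM (SD, n = 3) in pDC, beside 70.7 ± 10.6 for cDC2 and 4.98 ± 1.19 for cDC1, although 34.7% of its 75-base windows also lie in the antisense gene Tesk1. Cd93 reached 12.6 ± 1.17 CPM in pDC, beside 6.79 ± 1.71 in cDC2 and 0.804 ± 0.257 in cDC1. Clec2i was at 35.7 ± 2.84 CPM in pDC and 28.4 ± 0.281 in cDC2, beside 10.2 ± 2.70 in cDC1, and the difference between pDC and cDC2 did not pass (log2 fold change 0.33, standard error 0.18, edgeR adjusted p = 0.173). Mrc2, an endocytic receptor for collagen, was led by cDC2 with 23.1, 21.6 and 12.8 CPM, beside 1.28 ± 0.575 in cDC1 and 0.345 ± 0.258 in pDC.

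Cd69, an early activation marker, varied most between the pDC libraries, with 17.1, 25.3 and 114 CPM, and replicate 3 was also highest in cDC1 (3.72 beside 1.24 and 1.17) and in cDC2 (5.85 beside 2.96 and 3.05). Clec2d was lowest in replicate 3 of each subset, with 10.3 CPM for cDC1, 15.1 for cDC2 and 34.4 for pDC, and its means were 21.8 ± 10.3, 43.0 ± 25.8 and 63.9 ± 32.2. The pDC libraries lay above those of cDC1 (log2 fold change 1.54, standard error 0.57, edgeR adjusted p = 0.0484), and cDC2 overlapped both. Mrc1, the mannose receptor, did not pass in any comparison, and it was lowest in replicate 2 of each subset (3.55, 5.71 and 2.74 CPM).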
